A study of Mus musculus with 3 samples.

Results

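Smooth muscle cells rich in *Rbp4* and *Wif1* transcripts made up 522 of the 26158 cells kept from single-cell RNA-seq of the mouse ascending aorta, and 390 of the 522 came from the WT library. The cells were picked with a chain of limits on unique molecular identifiers (UMIs, each standing for 1 captured transcript). A cell barcode was kept with 600 to 5000 detected genes and at most 10% mitochondrial UMIs. It was gated as smooth muscle when *Acta2*, *Myh11*, *Tagln*, *Cnn1*, *Myl9* and *Tpm2* together gave at least 150 of every 10000 UMIs, *Dcn* gave fewer than 10 per 10000, and neither *Ptprc* nor *Pecam1* was seen. A gated cell belonged to the population when *Rbp4* and *Wif1* together reached 5 per 10000, with *Rgs5* under 5, *Tnnt2* plus *Tcap* under 2, and *Vcam1* plus *Spp1* under 4 per 10000. Gated cells that met the same 3 side limits but had *Rbp4* plus *Wif1* under 5 per 10000 are called the other smooth muscle cells below. There were 4840 of them among 12913 gated cells. Since the counts of *Rbp4*, *Wif1* and the other gate genes chose the cells, their levels are given as a description, with no test.

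All mice were male C57BL/6J animals at postnatal day 45. The WT library pooled the aortas of 3 wild-type mice. The mgR library pooled 3 mice homozygous for the hypomorphic *Fbn1* allele mgR (Fbn1mgR/mgR), a model of Marfan syndrome in which less fibrillin-1 is made in every cell that expresses the gene, and the mgR-LOS library pooled 4 mice of that genotype that drank losartan, a blocker of the angiotensin II type 1 receptor, at 0.6 g/L from postnatal day 16. The labels mention a vehicle arm but do not say whether the mgR pool belonged to it. With 1 pooled library per condition, condition, pool and library cannot be told apart, and no difference between conditions could be tested. The libraries held 83338726 UMIs in 7858 barcodes (WT), 123956320 in 10657 (mgR) and 121436873 in 14663 (mgR-LOS), of which 5361, 8076 and 12721 barcodes were kept. Kept cells of mgR-LOS were shallower, with a median of 8334 UMIs against 13636 in WT and 12410.5 in mgR. Each pair of libraries shared 22 to 46 barcode sequences. *Fbn1* (ENSMUSG00000027204) itself followed the genotype labels. In the other smooth muscle cells it stood at 249.9 UMIs per 1000000 UMIs of the summed cells (CPM) in WT, 72.7 CPM in mgR and 70.7 CPM in mgR-LOS, and in the *Rbp4*/*Wif1*-rich cells at 264.7, 80.2 and 59.0 CPM.

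*Rbp4* encodes retinol-binding protein 4, the carrier that takes vitamin A out of the liver into the circulation, where target cells turn retinol into retinoic acid, a ligand of nuclear receptors. *Wif1* encodes Wnt inhibitory factor 1, a secreted protein that binds Wnt ligands and keeps them from their receptors. The population was also named after *Mfap4* and *Mfap5*, which encode proteins that associate with the fibrillin microfibrils on which elastic fibers are laid down, and *Pdlim4*, an actin-linked PDZ and LIM domain protein. In the aortic media, smooth muscle cells make these fibers and contract around them.

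*Rbp4* (ENSMUSG00000024990) lies on the minus strand at chr19:38116629-38125281 and *Wif1* (ENSMUSG00000020218) on the plus strand at chr10:121033960-121100650 of GRCm38, in the GENCODE M21 annotation. Because the population was defined by the joint level of these genes, the 250 bases before their RefSeq starts (GRCm38.p6) are printed on the strand of the gene, with capitals on matches to TATAAA or GGGCGG on either strand.
Rbp4, chr19:38124812-38125061: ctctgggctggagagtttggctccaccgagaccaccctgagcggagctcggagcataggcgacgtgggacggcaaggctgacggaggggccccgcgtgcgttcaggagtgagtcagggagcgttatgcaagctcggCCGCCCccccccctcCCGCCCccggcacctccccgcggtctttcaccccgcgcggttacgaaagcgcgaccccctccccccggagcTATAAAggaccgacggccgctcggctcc
Wif1, chr10:121033754-121034003: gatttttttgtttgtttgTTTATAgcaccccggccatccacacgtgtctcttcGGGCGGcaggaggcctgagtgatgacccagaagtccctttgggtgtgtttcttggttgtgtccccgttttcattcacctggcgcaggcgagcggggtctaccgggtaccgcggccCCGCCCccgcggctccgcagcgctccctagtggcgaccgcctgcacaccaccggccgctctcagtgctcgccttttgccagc
The *Rbp4* window held 1 TATAAA on its own strand and 2 GGGCGG on the other strand. The *Wif1* window held 1 TATAAA on the other strand and GGGCGG once on each strand. Over 32851 RefSeq promoter windows of the same length, 12.4% held TATAAA and 32.7% held GGGCGG on either strand. Neither window held CTTTGT or CTTTGA, the core letters of sites for Wnt-responsive TCF factors, which 16.5% and 13.8% of all windows held, nor a match to the CArG box of serum response factor, which 1.47% held. The window before a second RefSeq start of *Rbp4*, chr19:38125322-38125571, held CTTTGA once on the other strand and no TATAAA or GGGCGG. These matches describe letters in the windows only.

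In WT, *Rbp4* and *Wif1* were carried by smooth muscle cells at large, and in both mgR libraries most gated cells had neither. The summed level of *Rbp4* and *Wif1* over all gated cells had a median of 3.05 per 10000 UMIs in WT and of 0 in mgR and mgR-LOS. No UMI of either gene was seen in 15.1% of the gated cells of WT, 52.6% of mgR and 64.0% of mgR-LOS. The 90th percentile was 10.3 per 10000 in WT, 2.26 in mgR and 2.52 in mgR-LOS. Thus the distribution as a whole lay lower in mgR and mgR-LOS, and a limit at 5 per 10000 cannot tell apart fewer cells of a distinct kind from a lower level of both genes in all cells.

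The population was 13.7% of the gated cells in WT (390 of 2849, exact binomial 95% interval 12.4% to 15.01%). In mgR it was 0.867% (25 of 2883, 0.562% to 1.28%), and in mgR-LOS 1.49% (107 of 7181, 1.22% to 1.80%). The WT interval did not overlap the others. The intervals cover counting error only, not the spread between mice. Of the gated cells within the 3 side limits, the share was 36.5%, 2.05% and 3.48% in the same order. Of all kept cells it was 7.27%, 0.310% and 0.841%. In mgR-LOS, cells were shallower and 13 members passed on fewer than 3 UMIs of both genes together, against 10 in WT and 1 in mgR. Thinned to 5000 UMIs per cell, before the gates, the shares were 10.5%, 0.934% and 1.26%.

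**Figure D1:**
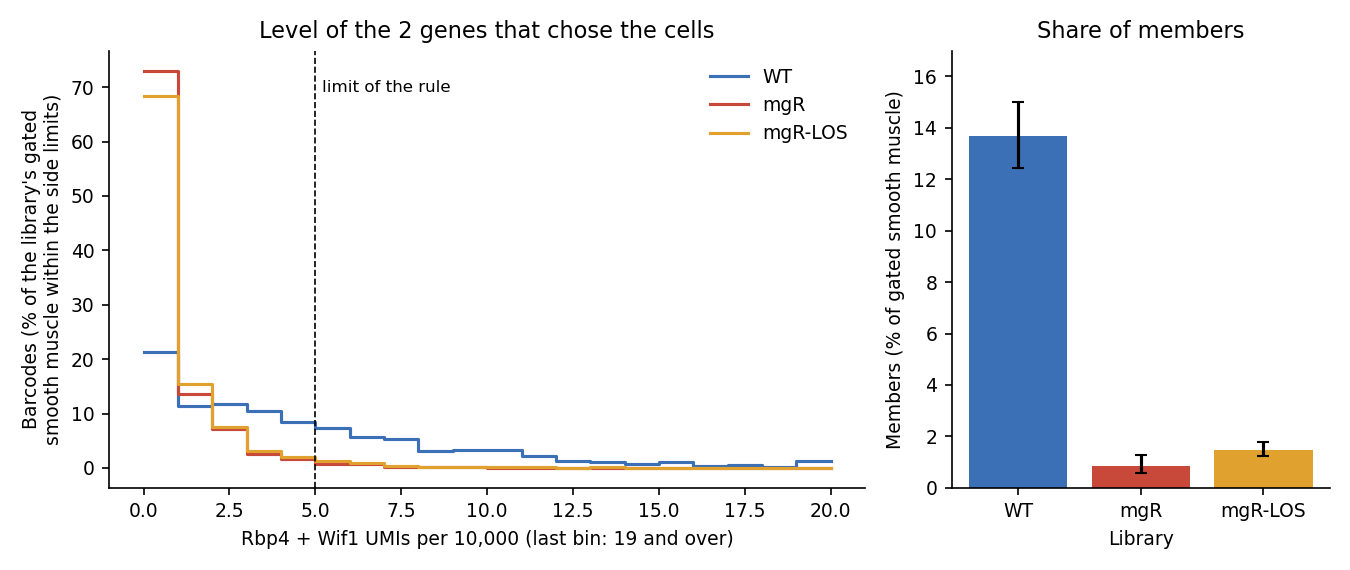
Summed *Rbp4* and *Wif1* level per 10000 UMIs in each library (left, percent of the gated smooth muscle cells within the side limits per interval, with the last interval open), and share of gated cells in the *Rbp4*/*Wif1*-rich population (right, bars with exact binomial 95% intervals that cover counting error only). The WT line stays above the others past the limit of 5 per 10000 (dashed line), and the shares read 13.7% in WT, 0.867% in mgR and 1.49% in mgR-LOS.

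Within the population, WT cells also carried more of the 2 genes. The median summed level of the members was 8.02 per 10000 in WT, 6.56 in mgR and 6.30 in mgR-LOS, and the highest was 31.9, 11.8 and 17.3. The limit cut through a continuous slope, with 138, 16 and 67 members between 5 and 7 per 10000 and 202, 51 and 160 other cells just below, between 3 and 5. Both genes were seen in 309 of 390 members in WT, 13 of 25 in mgR and 28 of 107 in mgR-LOS, where cells were shallower. Members without any *Wif1* numbered 57 in WT, 9 in mgR and 71 in mgR-LOS, and members without any *Rbp4* numbered 24, 3 and 8.

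In summed counts, *Rbp4* stood at 601 CPM in the WT members against 98.8 CPM in the other smooth muscle cells, at 433 against 43.0 CPM in mgR and at 599 against 43.3 CPM in mgR-LOS. *Wif1* stood at 318 against 108 CPM in WT, 257 against 28.2 CPM in mgR and 113 against 26.5 CPM in mgR-LOS. *Rbp4* in the members was thus close in WT and mgR-LOS, while *Wif1* was lowest in the mgR-LOS members. The other smooth muscle cells of WT, though chosen to be low, still held more of both genes than those of the other libraries.

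Cells with *Rbp4* held *Wif1* only somewhat more often than cells without it. Among gated cells thinned to 5000 UMIs, *Wif1* was seen in 50.1% of WT cells with *Rbp4* and in 40.2% of those without. In mgR the shares were 13.6% and 10.98%, and in mgR-LOS 11.5% and 9.55%. Over all gated cells without thinning, Spearman's rho between both levels was 0.189 in WT, 0.0421 in mgR and 0.0261 in mgR-LOS. These rho values were not matched for depth, and they are a description since all cells of a library share its preparation.

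The limit on *Tnnt2* and *Tcap*, genes of heart and striated muscle sarcomeres, removed more than 50% of the gated cells in each library. Their sum reached 2 per 10000 in 60.5%, 51.9% and 54.9% of the gated cells of WT, mgR and mgR-LOS. Among the cells over that limit, *Rbp4* plus *Wif1* also reached 5 per 10000 in 525 of 1725 in WT (30.4%), 43 of 1495 in mgR (2.88%) and 89 of 3942 in mgR-LOS (2.26%). Without any side limit, 923 (32.4%), 71 (2.46%) and 210 (2.92%) gated cells reached 5 per 10000. The order of WT against the other libraries was the same with and without the limits, while mgR-LOS went from 1.72 times the mgR share to 1.19 times.

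Both genes were also seen outside smooth muscle. To compare at equal depth, each cell was thinned to 1000 UMIs. *Rbp4* was then seen in 28.4%, 15.6% and 20.9% of the cells of a fibroblast gate (high *Dcn*, low smooth muscle genes) of WT, mgR and mgR-LOS, and in 37.5%, 36% and 45.8% of the members. *Wif1* was seen in 17%, 7.08% and 10.5% of the fibroblast gate and in 23.1%, 12% and 12.1% of the members. In a gate of immune cells, which should lack both genes, *Rbp4* was seen in 2.52%, 0.146% and 0.332% of cells and *Wif1* in 0.840%, 0.0729% and 0%, where a limit of 3 counts in place of the 0 of 603 cells allows up to 0.498% of cells with a UMI. The other smooth muscle cells, with *Rbp4* in 9.48%, 4.77% and 3.74%, lay above that background. Unthinned, *Rbp4* was seen in 93.8%, 88% and 92.5% of the members (median depths 14751.5, 15296 and 7481 UMIs) and in 5.88%, 1.68% and 1.99% of the immune cells (8519, 8026 and 6694 UMIs).

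The gate set the smooth muscle, leukocyte and endothelial markers of these cells, so the levels of those genes describe the choice. *Acta2*, smooth muscle actin, stood at 23656 CPM in the members and 22515 CPM in the other smooth muscle cells of WT, 20599 and 22369 CPM in mgR, and 20388 and 20846 CPM in mgR-LOS. *Ptprc* and *Pecam1*, which mark leukocytes and endothelium, were at 0 by the gate. Outside the gate, 24 contractile genes, led by *Myl6*, summed to 28247.6 CPM in the members and 27638.1 CPM in the other cells of WT, 23638.5 and 26099.4 CPM in mgR, and 24454.1 and 25979.8 CPM in mgR-LOS, which is no independent check of cells chosen on contractile genes. Of the genes that named the population, *Mfap4* alone passed the test. *Mfap4* stood at 1239.6 CPM in the members against 991 CPM in the other cells of WT, 639 against 418 CPM in mgR and 365 against 300.01 CPM in mgR-LOS (log2 fold change 0.40, SE 0.07, edgeR quasi-likelihood test, adjusted p = 0.00147). *Mfap5* stood at 790.3 against 719.5 CPM, 462.5 against 274.7 CPM and 302.6 against 259.9 CPM, and missed the threshold (0.32, SE 0.08, adjusted p = 0.0581). *Pdlim4* stood at 129 against 116 CPM, 18.7 against 25.5 CPM and 47.4 against 67.2 CPM (0.01, SE 0.11, adjusted p = 1).

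Pooling the libraries gave larger figures for all 3 markers, 2.39 times for *Mfap4*, 2.07 times for *Mfap5* and 1.85 times for *Pdlim4*. WT held 74.7% of the pooled members but 14.0% of the pooled other cells, and all 3 genes stood at their highest in WT in both classes. Across intervals of the summed *Rbp4* and *Wif1* level in WT, *Mfap4* went from 765 CPM in cells with neither gene through 1003 CPM between 1 and 3 per 10000 to 1319 CPM at 10 or more. In mgR it went from 316 to 579 CPM between 0 and the interval from 1 to 3, and in mgR-LOS from 278 to 337 CPM. Between 3 and 5 per 10000 it stood at 532 CPM in mgR and 350 CPM in mgR-LOS. Past the limit it stood in mgR-LOS at 339 CPM between 5 and 7 (67 cells) and 402 CPM between 7 and 10 (24 cells). Among intervals with at least 20 cells, *Mfap4* was thus lowest in cells with neither gene in each library. In WT it already stood at 1141 CPM between 3 and 5 per 10000, just below the limit, while the mgR intervals past the limit held 16, 7 and 2 cells, too few to follow it there. Without cells holding any UMI of *Dcn*, *Pdgfra*, *Dpt*, *Clec3b* or *Lum*, the *Mfap4* log2 fold change was 0.32, near the 0.40 of all cells, and no longer passed (adjusted p = 0.234).

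**Figure D2:**
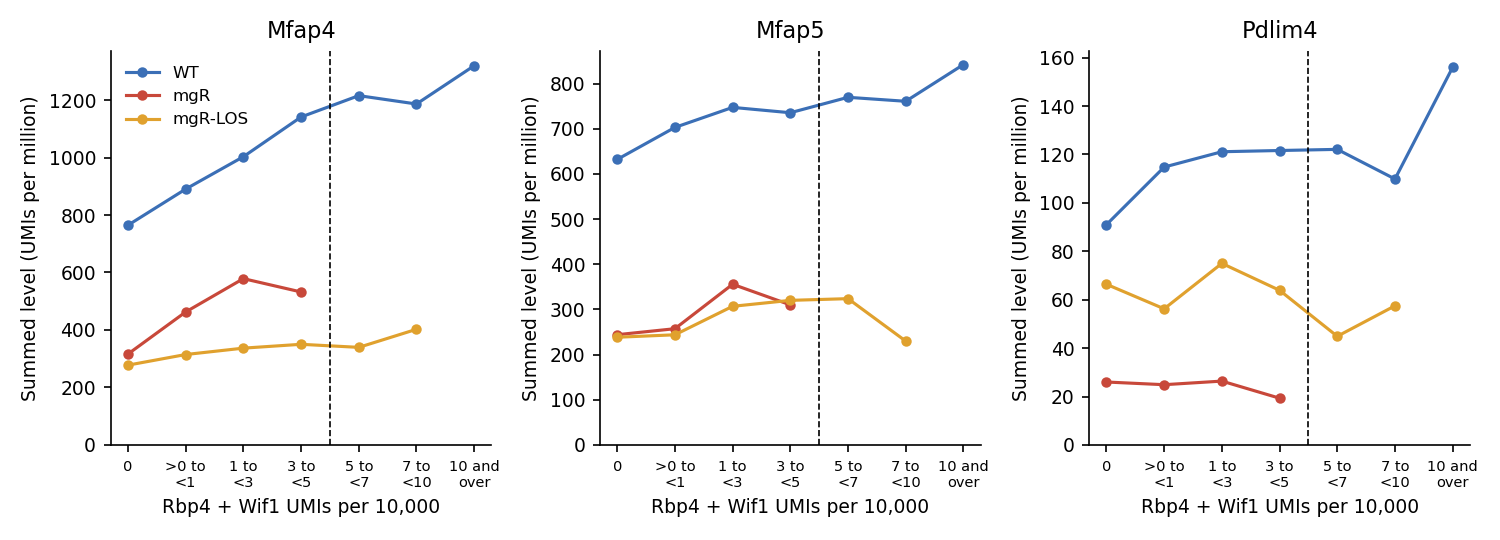
Summed level (CPM) of *Mfap4*, *Mfap5* and *Pdlim4* by interval of *Rbp4* plus *Wif1* per 10000 UMIs in each library, for intervals with at least 20 cells and with the limit of 5 as a dashed line; no error is drawn. *Mfap4* climbs from 765 to 1319 CPM in WT, and at every interval WT lies above both other libraries for all 3 genes.

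In WT and mgR-LOS, members lay near other members more often than gated cells at large did, but most of their neighbors were not members. With all gate genes left out, 22.9% of the 20 nearest neighbors of a WT member in expression space were members, against 15.2% for the other smooth muscle cells and 13.7% of all gated cells. The same shares were 1.2%, 1.11% and 0.867% in mgR, and 2.85%, 1.46% and 1.49% in mgR-LOS. Over the gated cells, the genes most like *Rbp4* plus *Wif1* of 2403 ranked were *Sparc* (mean Spearman's rho over the 3 libraries 0.177), *Col3a1* (0.163), *Mfap4* (0.161), *Ogn* (0.159) and *Mfap5* (0.154), followed by *Mylk4*, *Sfrp2*, *Col1a2*, *Sod3* and *Limch1* (0.130). These correlations were weak and rest on cells that share a library.

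Against the other smooth muscle cells, the members had more *Sfrp2*, *Lamc3*, *Cst3* and *Ogn*, which encode secreted and matrix proteins, and less *Des*, *Lgals3*, *Acan* and *Mustn1*. The differences were modest, at log2 fold changes of 0.41 to 0.96 and of -1.23 to -0.50 for these genes. Among cells without a UMI of 5 fibroblast genes, described below, the calls of *Cst3* (log2 fold change 0.16, adjusted p = 0.999) and *Ogn* (0.32, adjusted p = 0.164) were lost, and those of the other 6 genes passed. Members and other cells were of like depth in WT (medians of 14751.5 and 14566 UMIs) and mgR (15296 and 15390), and members were shallower in mgR-LOS (7481 and 8543), with mitochondrial shares of 6.34%, 5.49% and 5.09% against 6.25%, 5.81% and 5.43%. Sums of UMIs per library and class were compared in 1 edgeR quasi-likelihood model with the library as a term. Of 11296 genes tested outside the gate genes, 38 were higher (0.336%) and 32 lower (0.283%) in the members at a Benjamini-Hochberg adjusted p under 0.05, together 0.62%. All adjusted p-values below come from this test unless another is named. Of these, 34 of the 38 and 31 of the 32 differed in the same direction in all 3 libraries. The 3 libraries are 3 conditions and the samples are pools, so the p-values do not measure the spread between mice. They set the class difference against a spread over these libraries that the model estimates partly from all genes together. A gene could therefore pass although its libraries went in opposite directions, as *Gdf10* did below. Since mgR gave 25 members with 374051 UMIs, against 5646915 UMIs in WT and 780034 in mgR-LOS, single cells could carry a gene's value there. When each library was left out in turn, 11 of the 38 and 11 of the 32 passed every time, and DESeq2 called 9 and 7.

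Among secreted regulators, *Sfrp2*, which encodes another secreted Wnt antagonist, was the most stable gene that was higher. It stood at 254 CPM in the members against 191 CPM in the other cells of WT, 361 against 122 CPM in mgR and 356 against 197 CPM in mgR-LOS (log2 fold change 0.84, SE 0.11, adjusted p = 4.11e-05). The members were above the other cells in all 3 libraries, and the call passed in 13 of 14 other settings. *Fst*, encoding the activin antagonist follistatin, stood at 9.74 against 7.13 CPM, 189.8 against 18.2 CPM and 41.0 against 13.8 CPM (1.96, SE 0.30, adjusted p = 0.000348), but 66.2% of its UMIs in the mgR members came from 1 cell, and without mgR the log2 fold change was 1.00. *Gdf10*, a BMP family ligand, stood at 1.42 against 3.82 CPM in WT, 115 against 19.3 CPM in mgR and 58.97 against 12.8 CPM in mgR-LOS (1.79, SE 0.34, adjusted p = 0.00475), so that its libraries went in opposite directions. A single cell gave 62.8% of the *Gdf10* UMIs in the mgR members, and another 58.7% of those in the mgR-LOS members. The *Gdf10* call was kept in 7 of 14 other settings, and its direction turned among cells without a UMI of 5 fibroblast genes (log2 fold change -0.10, adjusted p = 0.999) and with members of 10 or more per 10000 (-0.78).

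Higher genes of matrix included *Lamc3*, *Ogn*, *Col3a1* and *Fbln5*. *Lamc3*, a laminin chain of basement membranes, stood at 38.3 against 22.5 CPM in WT, 85.5 against 27.4 CPM in mgR and 29.5 against 18.0 CPM in mgR-LOS (log2 fold change 0.96, SE 0.16, adjusted p = 0.00088). *Ogn*, the small leucine-rich proteoglycan osteoglycin, stood at 1019 against 895 CPM, 684 against 372 CPM and 960.2 against 782.5 CPM (0.41, SE 0.08, adjusted p = 0.00566). *Col3a1*, a fibrillar collagen chain that fibroblasts also make in quantity, stood at 3225 against 2825 CPM, 3740.1 against 3139 CPM and 3245 against 2358 CPM (0.30, SE 0.06, adjusted p = 0.00495). All 3 genes were higher in the members of every library. *Fbln5*, an elastic fiber assembly protein, was nearly level in WT (595 against 588 CPM) and higher in mgR (1117 against 742 CPM) and mgR-LOS (712 against 546 CPM; 0.31, SE 0.07, adjusted p = 0.0392). Without mgR the *Fbln5* call was lost (log2 fold change 0.20, adjusted p = 0.211), as it was without mgR-LOS (0.28, adjusted p = 0.279), where that of *Col3a1* was also lost (0.22, adjusted p = 0.569). The *Ogn* log2 fold change was 0.26 without mgR.

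*Cst3*, the abundant secreted cysteine protease inhibitor cystatin C, stood at 2358 against 2136 CPM in WT, 3641 against 2149.7 CPM in mgR and 3260.1 against 2215 CPM in mgR-LOS (log2 fold change 0.48, SE 0.07, adjusted p = 0.000166). *Cebpd*, a transcription factor of the C/EBP family, stood at 122 against 112 CPM, 203 against 102 CPM and 205 against 98.5 CPM (0.61, SE 0.12, adjusted p = 0.0077). For both genes the WT difference was the smallest of the 3. *Kcnj15*, a potassium channel, stood at 142 against 96.8 CPM in WT, 21.4 against 4.03 CPM in mgR and 3.85 against 3.03 CPM in mgR-LOS, where 8 UMIs, 6 of them in 1 cell, and 3 UMIs lay behind the members (0.64, SE 0.14, adjusted p = 0.026). Leaving out WT ended the *Kcnj15* call (log2 fold change 1.51, adjusted p = 0.529), and leaving out mgR-LOS ended that of *Cebpd* (0.42, adjusted p = 0.092), which stood at 1.01 without WT. The remaining genes with the largest rises were *Mia*, *Fibin*, *Ank2*, *Ccn5*, *Crispld2*, *Abcc9*, *Cebpb* and *Selenop*, with log2 fold changes of 0.42 to 0.77 and higher levels in the members of all 3 libraries.

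**Figure D3:**
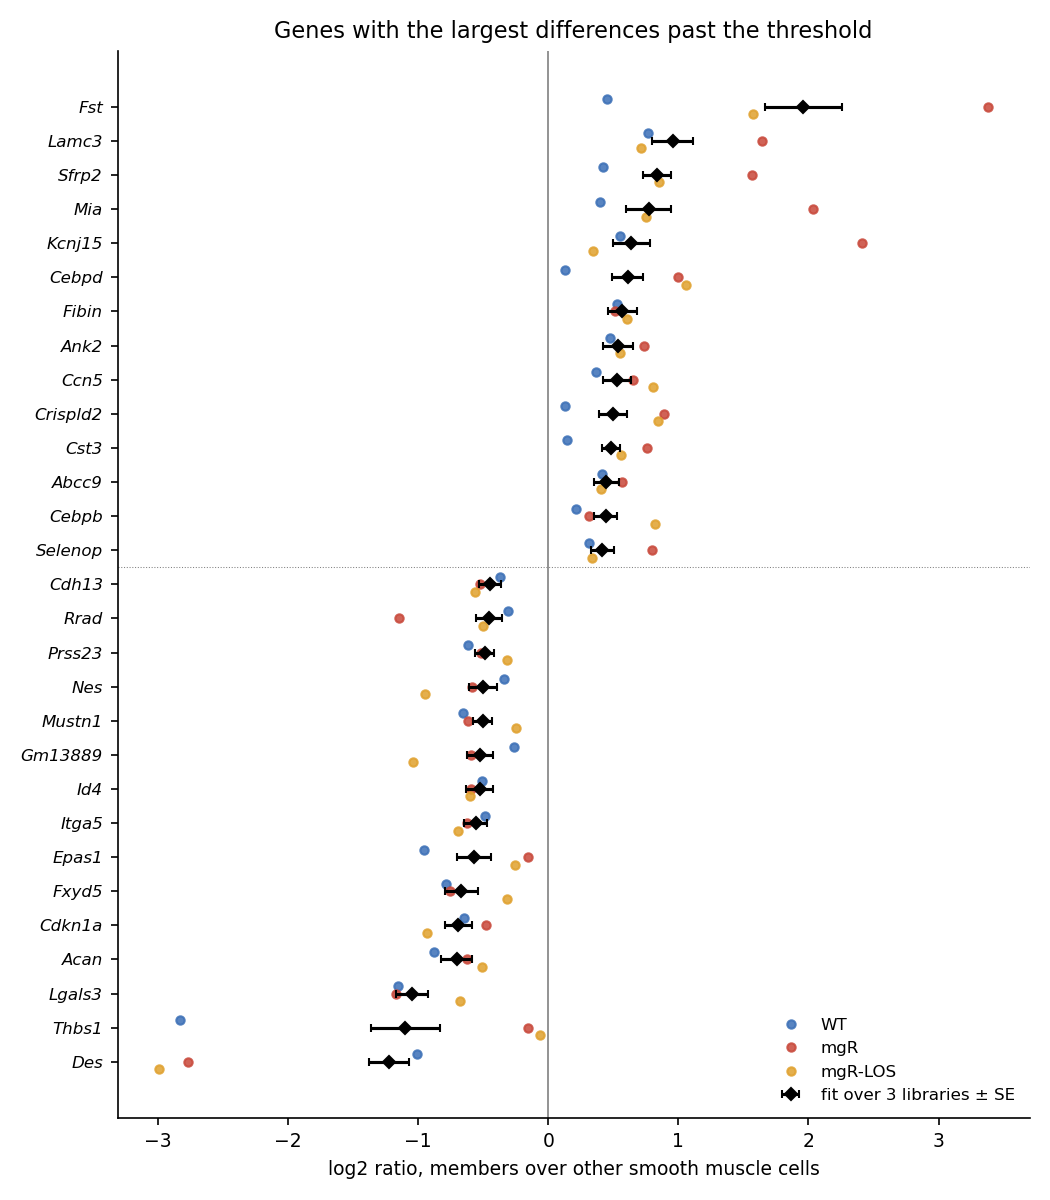
Log2 ratio of the members' level to that of the other smooth muscle cells for the genes of largest difference past the threshold, with 1 colored point per library and black diamonds with bars for the fitted log2 fold change ± SE over the 3 libraries. *Sfrp2* sits above 0 and *Des* and *Lgals3* below 0 in all 3 libraries, and the mgR points, from 25 members, lie furthest out for several genes.

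Summed fibroblast markers were higher in the members of every library, but single markers did not all go that way. The summed level of 11 fibroblast markers outside the gate was 7313 CPM in the members against 6723 CPM in the other cells of WT, 8745 against 7556 CPM in mgR and 7597 against 5945 CPM in mgR-LOS, led by *Col3a1*, which smooth muscle also expresses. Of 10 tested, 1 was higher (*Col3a1*) and none lower. *Col1a2*, the other abundant collagen gene of this list, stood at 2325 against 2161 CPM, 2895 against 2395 CPM and 2355 against 2022 CPM (adjusted p = 0.106). The fibroblast-defining *Dcn*, limited by the gate, stood at 24.8 against 35.1 CPM, 115 against 34.1 CPM and 105 against 71.5 CPM, and at 13499.9, 9210.2 and 13225 CPM in the fibroblast gate. *Clec3b* was at 0 UMIs in the members of WT and mgR. When both classes were limited to cells without any UMI of *Dcn*, *Pdgfra*, *Dpt*, *Clec3b* or *Lum*, which left 256, 9 and 54 members, 9 of the 38 higher genes passed (among them *Sfrp2*, *Lamc3*, *Ank2*, *Fibin*, *Srpx2*, *Kcnj15*, *Mt1* and *Fbln5*, but not *Cst3* or *Ogn*) and 36 kept their direction. *Col3a1* had a log2 fold change of 0.25 there (adjusted p = 0.458), near its 0.30 in all cells. Of the 32 lower genes 18 passed and 30 kept their direction.

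*Des*, *Lgals3*, *Acan* and *Thbs1* were among the genes with the largest decreases. *Des*, encoding the intermediate filament protein desmin, stood at 65.5 CPM in the members against 132 CPM in the other cells of WT, 5.35 against 36.4 CPM in mgR and 7.69 against 61.1 CPM in mgR-LOS (log2 fold change -1.23, SE 0.15, adjusted p = 1.76e-05). Only 2 and 6 *Des* UMIs lay behind the mgR and mgR-LOS members, and without WT the log2 fold change was -2.94. The *Des* call passed in 11 of 14 other settings, but was lost with DESeq2 and without the side limits. *Lgals3*, encoding galectin-3, stood at 32.4 against 72.0 CPM, 48.1 against 108 CPM and 37.2 against 59.3 CPM (-1.05, SE 0.12, adjusted p = 5.73e-06), and its call passed in 13 of 14 other settings. Members were below the other cells in every library for both genes. *Acan*, the cartilage proteoglycan aggrecan, stood at 19.8 against 36.3 CPM, 115 against 177 CPM and 53.8 against 76.6 CPM (-0.70, SE 0.12, adjusted p = 0.000957). *Thbs1*, a matricellular protein, stood at 3.90 against 27.7 CPM in WT but at 93.6 against 104 CPM in mgR and 43.6 against 45.5 CPM in mgR-LOS (-1.10, SE 0.27, adjusted p = 0.0441). Of its 35 UMIs in the mgR members 21 (60%) came from 1 cell. The *Thbs1* call was kept in 4 of 14 other settings, and without WT the log2 fold change was -0.14 (adjusted p = 0.995).

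*Mustn1*, a muscle gene induced in repair and loading, stood at 317 against 498 CPM in WT, 559 against 858 CPM in mgR and 524 against 621 CPM in mgR-LOS (log2 fold change -0.50, SE 0.07, adjusted p = 0.000249). *Itga5*, the fibronectin receptor subunit, stood at 136 against 190.3 CPM, 160.4 against 248 CPM and 99.996 against 162 CPM (-0.56, SE 0.09, adjusted p = 0.000452). *Cdkn1a*, the cell cycle inhibitor p21, stood at 50.3 against 78.9 CPM, 64.2 against 89.2 CPM and 70.5 against 134 CPM (-0.69, SE 0.11, adjusted p = 0.000348), with 17 of its 24 mgR UMIs in 1 member. These 3 genes were lower in the members of all libraries, and *Mustn1* and *Itga5* passed in 12 of 14 other settings. *P2rx1*, the ATP-gated channel of vascular muscle, stood at 6.02 against 14.46 CPM, 5.35 against 53.0 CPM and 15.4 against 25.9 CPM (-1.35, SE 0.23, adjusted p = 0.00153). *Prss23*, *Cdh13*, *Id4*, *Fxyd5*, *Epas1*, *Gm13889*, *Nes* and *Rrad* completed the largest decreases, at log2 fold changes of -0.67 to -0.45. Of these, only *Prss23* and *Rrad* passed when each library was left out in turn. Without WT the log2 fold change was -0.23 for *Epas1*, -0.82 for *Nes*, -0.85 for *Gm13889* and -0.71 for *Rrad*.

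Gene groups other than those named above showed few calls. Over all 11296 genes the median log2 fold change was -0.01, and 0.336% and 0.283% were called higher and lower. The 13 tested retinoid genes had a median log2 fold change of 0.14, and none was called lower. Of 15 Wnt antagonists and feedback genes, *Sfrp2* alone was called, and *Sost*, the abundant sclerostin gene, was not (834 against 856 CPM, 1069 against 813 CPM and 818 against 693 CPM, adjusted p = 0.494). Of 16 Wnt ligands and receptors none was called by edgeR or DESeq2, with 1 at an unadjusted p under 0.05.

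Of 22 genes of microfibrils and elastic fibers 2 were higher (*Mfap4* and *Fbln5*) and 1 lower (*Fbln2*), with a list median of 0.14. The *Fbln2* call was kept in 4 of 14 other settings, and its log2 fold change went from -0.97 to -0.33 without WT. *Eln*, the elastin gene, stood at 6763 against 6539 CPM, 7359.96 against 7469.9 CPM and 5106 against 4675 CPM (log2 fold change 0.05, SE 0.05, adjusted p = 1). Of 24 contractile genes none was higher and 2 were lower (*Des* and *Sorbs2*). *Myh11*, the smooth muscle myosin heavy chain of the gate, had a fold change of -0.16 on the log2 scale with no test. Of 15 PDZ and LIM genes 2 were higher (*Fhl2* and *Limch1*) and 1 lower (*Crip1*). Of 19 collagens 1 was higher (*Col3a1*) and 2 lower (*Col15a1* and *Col18a1*, both of basement membrane zones). Of 8 small leucine-rich proteoglycans 1 was higher (*Ogn*), with a median of 0.44. Of 21 chondrogenic and mineral matrix genes 1 was higher (*Itgbl1*) and 1 lower (*Acan*). *Mgp*, the matrix calcification inhibitor, missed the threshold (4342 against 4647 CPM, 24392 against 17563 CPM and 11862 against 9052 CPM, adjusted p = 0.0529). Of 17 genes of modulated smooth muscle 1 was higher (*Ccn2*, connective tissue growth factor) and 2 lower (*Lgals3* and *Thbs1*).

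In signaling lists, 1 of 25 TGF-β pathway genes was higher (*Fst*), 2 of 18 BMP pathway genes were higher (*Bmp3* and *Gdf10*, the latter with a direction that turned in 2 settings as above) and 1 was lower (*Id4*). Of 15 angiotensin and vasoactive receptor genes 1 was lower (*P2rx1*). Of 18 ion channel and calcium handling genes 1 was higher (*Abcc9*, a subunit of ATP-sensitive potassium channels) and 1 lower (*Pln*, phospholamban). Among 15 lipid and adipokine genes *Cebpd* was higher, and among 23 proteases and inhibitors *Cst3* was higher. The 13 tested complement genes had a median log2 fold change of -0.02, and none was called lower. Of 34 integrin, laminin and adhesion genes 2 were higher (*Itgbl1* and *Lamc3*) and 3 lower (*Itga5*, *Thbs1* and *Postn*). Of 20 heat shock and stress genes 2 were higher, *Mt1*, a metallothionein, and *Gadd45g*. No member was called in the lists of Notch genes (12 tested, 1 at an unadjusted p under 0.05), positional transcription factors (29 and 1), IGF axis genes (10 and 4), immediate early genes (23 and 6), interferon-stimulated genes (16 and 1) and RNA quality genes (12 and 2), and DESeq2 called none in them either.

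Markers of other cell types gave few calls. The summed immune markers stood at 15.4 CPM in the members against 17.5 CPM in WT, 37.4 against 78.1 CPM in mgR and 62.8 against 88.6 CPM in mgR-LOS, led by *Cd74*, and none of 6 tested was called by either tool (1 at an unadjusted p under 0.05). The summed endothelial markers stood at 97.9 against 113 CPM, 160.4 against 115 CPM and 163 against 146 CPM, led by *Fabp4*, with none of 2 called by either tool and none at an unadjusted p under 0.05. Cardiomyocyte markers outside the gate stood at 85.5 against 115 CPM, 93.6 against 132 CPM and 80.8 against 109 CPM, and 2 of 9 were lower, *Actc1* (13, 0 and 1 UMIs in the members, adjusted p = 0.000168) and *Pln*. The part of these markers in the results above was not tested. Of 7 tested pericyte markers *Abcc9* was higher (summed 553 against 546 CPM, 591 against 577 CPM and 567 against 561 CPM, led by *Cspg4*). Valve and tendon-like markers (5 tested, 2 at an unadjusted p under 0.05), Schwann (1 tested), mesothelial (1 tested), cycling (2 tested, 1 at an unadjusted p under 0.05) and adipocyte markers (0 tested) gave no call by either tool. Of 4 red cell genes 1 was lower (*Hbb-bt*, at 0, 0 and 2 UMIs in the members). Of the genes of other smooth muscle gates, 1 of 3 was lower (*Acan*), and of the 3 genes beside *Rbp4* and *Wif1* that name this population 1 was higher (*Mfap4*).

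Members led by *Wif1* had more *Mustn1* and less *Sfrp2* and *Klf2* than members led by *Rbp4*. *Wif1* gave more UMIs than *Rbp4* in 113 members of WT, 7 of mgR and 12 of mgR-LOS, and *Rbp4* more in 262, 18 and 93. Of 5072 genes tested between them 1 was higher (0.0197%) and 2 were lower (0.0394%) in the *Wif1*-led cells, together 0.0591%. *Mustn1* stood at 444 CPM in *Wif1*-led against 265 CPM in *Rbp4*-led members of WT, 906 against 396 CPM in mgR and 867 against 475 CPM in mgR-LOS (log2 fold change 0.90, SE 0.13, adjusted p = 0.00325). *Sfrp2* stood at 166 against 287 CPM, 58.7 against 502 CPM and 149.8 against 383 CPM (-1.23, SE 0.23, adjusted p = 0.0414). *Klf2*, a transcription factor that responds to flow in endothelium, stood at 360.4 against 521 CPM, 227 against 522 CPM and 225 against 933 CPM (-1.02, SE 0.19, adjusted p = 0.0436). The groups were apart in the same direction in all 3 libraries for each gene. With 7 and 12 *Wif1*-led cells behind 2 of the 3 libraries, the *Sfrp2* and *Klf2* calls were each lost in 8 of 10 other settings and the *Mustn1* call in 3. All 3 calls were lost without the mgR library, without the mgR-LOS library and without the library as a term.

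Between mgR and WT members, *Igfbp2*, *Mgp*, *Fn1*, *Acan* and *Tnc* stood higher and *Pdlim4*, *Tnxb*, *Dsp* and *Fbn1* lower in mgR, with ratios on the same side of 1 in the other smooth muscle cells. Ratios between libraries are given with exact 95% intervals for counting error, with no test. Of 1577 genes at 100 CPM or more in either library, 42 were at least 2 times the WT level (2.66%) and 27 at most 0.5 times (1.71%). In the other smooth muscle cells 1.73% and 1.86% of 1507 genes passed these limits. *Igfbp2*, an insulin-like growth factor binding protein, stood at 71.9 CPM in WT and 1478 CPM in mgR members, a ratio of 20.6 (18.1 to 23.4, 15.6 in the other cells). *Mgp* went from 4342 to 24392 CPM, a ratio of 5.62 (5.48 to 5.75, 3.78 in the other cells). *Fn1*, fibronectin, went from 466 to 2238 CPM, a ratio of 4.80 (4.43 to 5.19, 3.31 in the other cells). For all 3 genes the members' ratio lay above that of the other cells, a gap that was not tested. Single mgR members gave 19.7% of the *Igfbp2*, 22.0% of the *Mgp* and 23.5% of the *Fn1* UMIs of the mgR members. In WT, 1 member gave 18.7% of the *Igfbp2* UMIs. The intervals do not cover this spread between cells. Of the transcripts that mark RNA quality, *Gm42418*, which overlaps ribosomal RNA, stood at 0.536 times the WT level in mgR members (0.540 in the other cells) and *Malat1*, a nuclear RNA, at 1.23 times (1.40). The 12 RNA quality genes summed to 108133 CPM in WT and 85413.5 CPM in mgR members, and their part in the ratios was not tested.

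*Acan* went from 19.8 to 115 CPM between WT and mgR members, a ratio of 5.80 (3.98 to 8.31, 4.87 in the other cells), and *Tnc*, tenascin-C, from 26.2 to 139 CPM, a ratio of 5.30 (3.79 to 7.32, 4.18 in the other cells). *Sncg*, gamma-synuclein, went from 25.5 to 329 CPM, a ratio of 12.9 (10.1 to 16.5) against 4.25 in the other cells, which already held 90.3 CPM in WT. The largest ratio, 81.1 for *Gdf10* (37.7 to 199.8), and that of *Fst*, 19.5 (13.5 to 28.2), rested mostly on 1 mgR cell each. *Nfkbia* at 5.39 and *Sphkap* at 3.93 completed the 10 largest.

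Below WT, *Pdlim4* went from 129 to 18.7 CPM, a ratio of 0.145 (0.0581 to 0.300) from 7 UMIs in mgR, against 0.2204 in the other cells. *Kcnj15* went from 142 to 21.4 CPM, a ratio of 0.151 (0.0650 to 0.299) against 0.0416 in the other cells, with 6 of its 8 mgR UMIs in 1 cell, and *Tnxb*, tenascin-X, from 106 to 16.04 CPM, a ratio of 0.152 (0.0555 to 0.332). *Ntf3*, neurotrophin-3, went from 148 to 26.7 CPM (0.181), *Dsp*, desmoplakin, from 212 to 64.2 CPM (0.302) and *Fbn1* from 264.7 to 80.2 CPM, a ratio of 0.303 (0.204 to 0.434), against 0.291 in the other cells. *Fbn1*, the mutated gene, thus had nearly the same ratio in both classes. *Mfap4* stood at 0.515 times WT (0.451 to 0.586) and *Mfap5* at 0.585 times (0.500 to 0.681) in the members, and at 0.421 and 0.382 times in the other cells. *Hspa1a*, *1190005I06Rik*, *Sema3c* and *Osr1* completed the 10 lowest at 0.330 to 0.353 times.

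**Figure D4:**
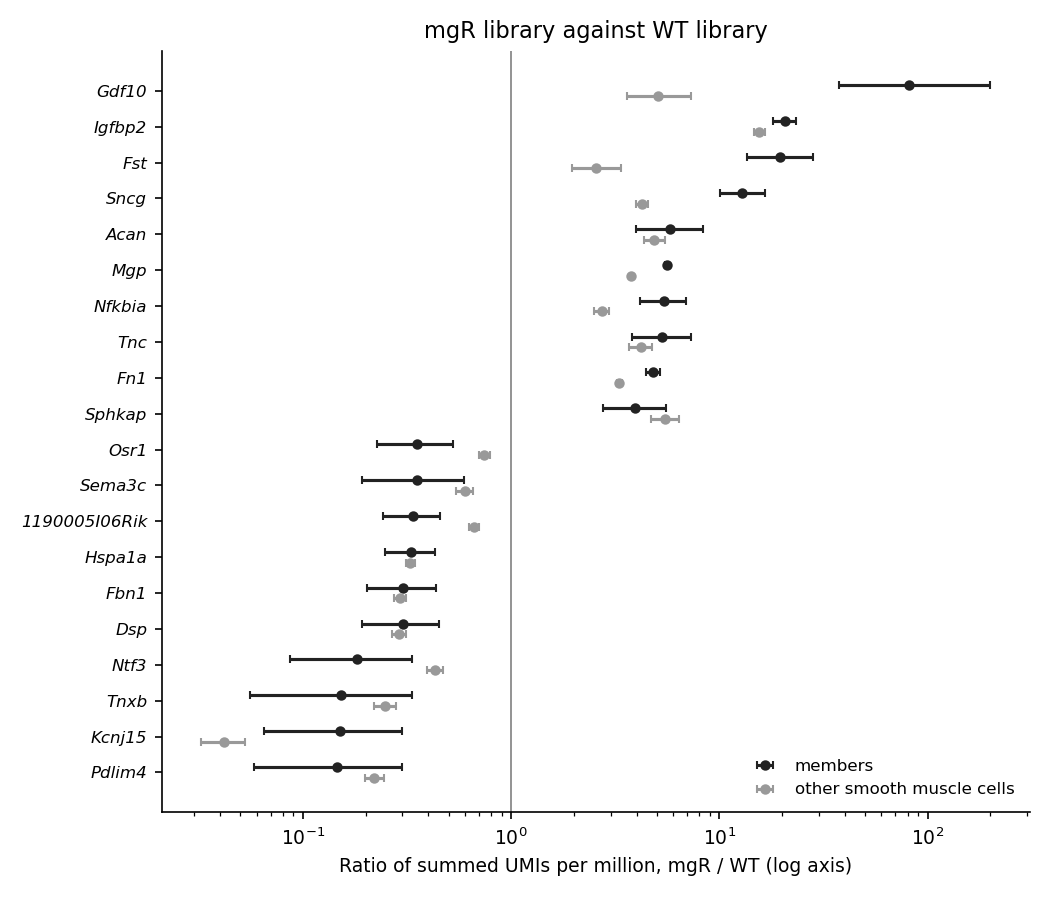
Level in mgR over WT (log scale) in the *Rbp4*/*Wif1*-rich cells, for 10 genes at either end of the ratios, with the ratio in the other smooth muscle cells beside it and exact 95% intervals for counting error. All 20 genes lie on the same side of 1 in both classes, and the members' intervals are wide because mgR gave 25 members.

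Between mgR-LOS and mgR members, *Fn1*, *Ccn2*, *Igfbp2* and *Scx* stood lower and *Zbtb16*, *Hes1* and *Hspa1a* higher with losartan, with ratios on the same side of 1 in the other smooth muscle cells. Of 1578 genes at 100 CPM or more, 20 were at least 2 times (1.27%) and 45 at most 0.5 times (2.85%) the mgR level, against 1.05% and 1.11% of 1526 genes in the other smooth muscle cells. Divided by the median ratio of these genes in place of the UMI totals, the counts were 27 and 38. *Fn1* went from 2238 to 505 CPM, a ratio of 0.226 (0.200 to 0.255, 0.338 in the other cells). *Ccn2* went from 3112 to 949 CPM, a ratio of 0.305 (0.278 to 0.335, 0.326 in the other cells). Both genes stood below their mgR level in both classes. Transcripts that mark RNA quality also differed between these libraries. *Gm42418* stood at 2.05 times the mgR level in mgR-LOS members (1.80 in the other cells), and *Malat1* at 1.82 times (1.58 in the other cells). The 12 RNA quality genes summed to 85413.5 CPM in mgR and 119020 CPM in mgR-LOS members, led by *Gm42418*, and their part in the ratios was not tested.

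*Igfbp2* went from 1478 to 454 CPM between mgR and mgR-LOS members, a ratio of 0.307 (0.268 to 0.351), and stood at 6.31 times the WT level. *Scx*, a transcription factor of tendon, went from 118 to 17.9 CPM, a ratio of 0.153 (0.0772 to 0.284, 0.198 in the other cells). *Flnc*, filamin C, went from 158 to 44.9 CPM, a ratio of 0.284, against 0.623 in the other cells. *Fst*, *Mia*, *Hbegf* and *Anxa3* were also among the 10 lowest at 0.216 to 0.365 times. These ratios share the mgR library with those above, so a chance deviation of the 25 mgR members enters both, with opposite signs.

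*Zbtb16*, a zinc finger transcription factor, had the largest ratio, from 16.04 CPM in mgR (6 UMIs) to 131 CPM in mgR-LOS members, 8.15 times (3.62 to 22.7), and 8.45 times in the other cells. *Hes1*, a target of Notch signaling, went from 118 to 359 CPM, a ratio of 3.05 (2.21 to 4.29, 1.79 in the other cells). *Hspa1a*, a heat shock gene, went from 152 to 459 CPM, a ratio of 3.01 (2.27 to 4.06), which was 0.993 times the WT level. Of the other genes with the largest ratios, *Gm26802*, *Plekho1*, *Adamts5*, *Abi3bp*, *Cyth3*, *Hk2* and *Zfp644* stood at 2.31 to 6.58 times.

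Of the genes that named the population, *Mfap4* and *Mfap5* did not stand nearer to WT in mgR-LOS than in mgR, and *Pdlim4* did. *Mfap4* stood at 1239.6 CPM in WT, 639 CPM in mgR and 365 CPM in mgR-LOS members, and *Mfap5* at 790.3, 462.5 and 302.6 CPM, so both were lowest in mgR-LOS. The ratio of mgR-LOS to mgR members was 0.572 for *Mfap4* (0.480 to 0.682) and 0.654 for *Mfap5* (0.535 to 0.801), and 0.718 and 0.946 in the other cells. *Pdlim4* stood at 129, 18.7 and 47.4 CPM. Between mgR-LOS and WT members, 24 of 1541 genes were at least 2 times (1.56%) and 24 at most 0.5 times (1.56%), against 0.655% and 0.851% of 1527 genes in the other smooth muscle cells, led by *Sncg* at 11.9 times and *Hes1* at 8.27 times, with *Kcnj15* at 0.0271 times (3 UMIs in mgR-LOS) and *Fbn1* at 0.223 times at the other end.

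**Figure D5:**
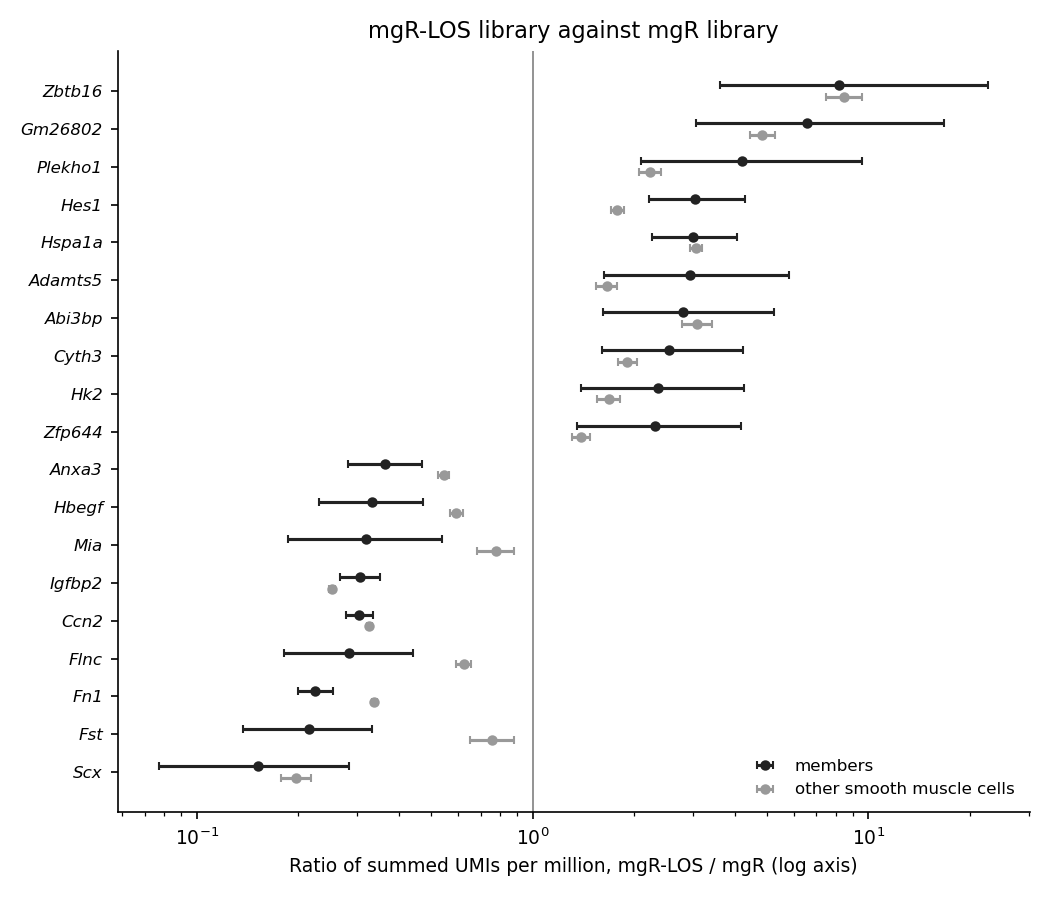
Level in mgR-LOS over mgR (log scale) in the *Rbp4*/*Wif1*-rich cells, for named genes at either end of the ratios, with the ratio in the other smooth muscle cells and exact 95% intervals for counting error. *Zbtb16* lies near 8 in both classes, and *Fn1* and *Ccn2* lie below 0.5 in both.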

How the data were processed

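Per the labels, aortas were pooled per condition and libraries made with the Chromium Single Cell 3' v3.1 kit. The authors deposited filtered matrices of UMI counts per gene and barcode for 32285 genes. The submitters' processing notes name the mm10 (GRCm38) build and Cell Ranger 6.0.1, while the file headers give 5.0.1 for WT and mgR and 6.0.1 for mgR-LOS, so a difference in software version cannot be told apart from losartan. Gene positions came from GENCODE M21. The lowest UMI count of a deposited barcode was 500.

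Counts were used as deposited. Limits on genes and mitochondrial UMIs followed the study's methods. Doublets were scored (25% artificial doublets, 10 principal components, the nearest 1% of cells, 0.8% expected per 1000 barcodes) and kept. The score marked 9, 1 and 4 members of WT, mgR and mgR-LOS (2.31%, 4.00% and 3.74%). Members against other smooth muscle cells, and *Wif1*-led against *Rbp4*-led members, were tested on UMI sums per library and class (TMM, filterByExpr, glmQLFTest, library as a term, Benjamini-Hochberg, threshold 0.05) with edgeR 4.0.16 in R 4.3.3. DESeq2 1.42.0, the filter, scaling, thinning, limits and left-out libraries were alternatives. Both tests were checked on simulated counts. Ratios between libraries used CPM with exact conditional binomial intervals. Members and gene lists were chosen with earlier results of these data known. Named genes were the 15 largest and 15 smallest log2 fold changes past the threshold, in the same direction in all libraries and at 50 CPM or more in the higher class, the strongest and most abundant members of each of the 38 lists, up to 10 per direction between *Wif1*-led and *Rbp4*-led members, the 10 largest and 10 smallest ratios at 100 CPM or more, and the 10 genes most like *Rbp4* plus *Wif1*. A few genes that this rule takes are not reported here. Counting intervals treat UMIs as independent. scipy 1.17.1, scikit-learn 1.9.0, pandas 2.3.3 and numpy 2.4.6 were used in Python 3.11.15, and matplotlib 3.10.9 drew the figures.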

Additional observations from a re-analysis of the deposited data

Results flagged for a closer look

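*Rbp4* and *Wif1* were also seen outside smooth muscle, in fibroblast-gate cells that no comparison used. At 1000 UMIs per cell *Rbp4* was seen in 28.4% of these cells in WT, 15.6% in mgR and 20.9% in mgR-LOS, and *Wif1* in 17%, 7.08% and 10.5%, all above the shares in the immune gate.

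For 19 named genes the level of the *Rbp4*/*Wif1*-rich cells over that of the other smooth muscle cells lay above 1 in at least 1 library and below 1 in another, with counting intervals clear of 1, and the difference between libraries was not tested. For 4 of them the ratio was 0.8 or less in 1 library and above 1 by at least the same factor in another. *Gdf10* stood at 5.96 times in mgR and above 1 in mgR-LOS, but below 1 in WT, with 62.8% and 58.7% of its UMIs in 1 cell each in mgR and mgR-LOS. *Apoe* stood at 2.13 times in mgR and below 1 in WT, with 44 of its 81 UMIs in the mgR members (54.3%) in 1 cell. *Klf2* stood at 1.46 times in mgR-LOS and below 1 in WT and mgR. *1190005I06Rik* stood at 1.33 times in WT and below 1 in mgR.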

How the results depend on the processing

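The small number of mgR members, 25, limits every value that rests on them, and the cause of each change below was not tested. Against 38 genes higher and 32 lower in the members, DESeq2's Wald test called 9 and 7, no filter on low counts 71 and 53, thinning to 5000 UMIs 11 and 10, a minimum of 3 UMIs of *Rbp4* plus *Wif1* 17 and 20, and members of 10 or more per 10000 6 and 4. Cells without a UMI of 5 fibroblast genes, an alternative chosen after seeing the data, gave 9 higher and 30 lower, and no side limits, also chosen then, 45 and 34. The fit without the library as a block gave 0 and 0 (edgeR, 189 genes at an unadjusted p under 0.05). Leaving out 1 library gave 28 to 65 higher and 30 to 53 lower, with the highest counts without WT (65 higher) and without mgR (53 lower). Between *Wif1*-led and *Rbp4*-led members, the 2 lower genes became 0 with DESeq2 size factors (148 at an unadjusted p under 0.05), DESeq2 (44), doublets removed (141), thinning (105) and at least 3 UMIs (149). The fit without the block gave 0 higher and 0 lower (56), no filter 2 and 20, and leaving out a library 0 to 1 higher and 0 to 9 lower, with 0 and 0 without mgR (211) or mgR-LOS (108).

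For genes past a factor of 2, members of 10 or more per 10000 gave 326 higher and 247 lower for mgR over WT, 305 and 386 for mgR-LOS over mgR, and 116 and 95 for mgR-LOS over WT. A mitochondrial limit of 5% gave 113 and 61, 51 and 107, and 51 and 44 in the same order. A minimum of 50 CPM gave 103 and 68, 68 and 114, and 71 and 44. Thinning gave 100 and 63 for mgR over WT and 63 and 113 for mgR-LOS over mgR, where leaving out mitochondrial, ribosomal protein and globin genes gave 35 higher. The share of gated cells in WT, mgR and mgR-LOS was 20.8%, 2.64% and 3.72% at a limit of 3 per 10000, 4.42%, 0.0694% and 0.223% at 10, and 32.4%, 2.46% and 2.92% with no side limits. In WT it was 10.5% both with a mitochondrial limit of 5% and after thinning, and in mgR-LOS 1.82% with that limit. WT had the highest share throughout. With members of 10 or more (126 cells of WT, 2 of mgR and 16 of mgR-LOS), log2 fold changes against the other cells reversed for *Ccn2* (-0.54), *Gdf10* (-0.783) and *Mt1* (-0.239), log2 ratios of mgR over WT for *Tnxb* (0.20) and *Sema3c* (0.0188), and of mgR-LOS over mgR for *Gm26802* (-0.7201), *Plekho1* (-1.135) and *Fst* (1.95). *Gdf10* also reversed without fibroblast UMIs (-0.10), and *Hbb-bt* with no side limits (0.0474). Of the other values of single genes, 1379 kept their direction and their side of the threshold or stayed within their error, 305 no longer passed the threshold, 34 newly passed it and 56 moved past their error.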
